A study of Arabidopsis thaliana with 6 samples.

Results

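An exon is skipped when the splicing machinery joins the exon before it directly to the exon after it, so that the exon leaves with its introns. The skipped exons described here are the 913 exon parts, called bins, that the deposited table of alternatively spliced bins marks as exon skipping (ES), out of 7973 such bins of all kinds. They were taken by that mark alone and lie in 721 genes, of which 584 hold 1 such exon, 137 hold several and none holds more than 6. In plants, exon skipping is less common than intron retention and than the use of alternative 5' or 3' splice sites. An exon whose length is a multiple of 3 can be skipped without moving the reading frame, whereas skipping any other coding exon shifts the frame, and a premature stop codon may then expose the transcript to nonsense-mediated decay. Splice site choice is set by proteins that bind the exon or its borders, among them the SR proteins, the polypyrimidine tract-binding (PTB) proteins and the kinases that phosphorylate SR proteins, and the genes of several of these regulators carry skipped exons themselves.

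The libraries came from total RNA of whole wild-type Arabidopsis thaliana seedlings of the Columbia (Col) ecotype, labelled as a pool of tissues. All seedlings were 9 days old and had been grown at 22 °C in days of 12 h light and nights of 12 h. In the light group, 3 libraries were made from seedlings that received white light for 2 h from zeitgeber time (ZT) 18, the middle of the night. In the dark group, 3 libraries were made from seedlings left in darkness, and both groups were harvested at ZT20. The libraries are called dark A, B and C and light A, B and C, after the letters of the deposited columns, and the labels do not say whether they came from separate cultures.

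Counts over genes summed to between 8695843 and 12689543 per library, and counts over the 913 skipped exons to between 27944 and 39248. Ribosomal RNA took 4.77% of the counts in dark C and 4.40% in light A, against 0.799% to 1.75% in the other libraries. RBCS1A, a leaf gene for the small subunit of Rubisco, stood at 12100 to 13500 CPM (counts scaled to the library total). The root hair genes COBL9 and EXPA7 were low, at 1.42 to 4.73 CPM. PHO1 and SCR, also listed as root genes, stood at 98.7 to 163 and 45.4 to 56.9 CPM. Reads of genes listed for leaf and of genes listed for root were thus present in every library. These markers did not move together. LHCB2.1, a second leaf gene, was at 138 to 145 CPM in dark and 1350 to 1480 in light. COBL9 was at 1.42 to 2.92 CPM in dark and 3.56 to 4.73 in light, and PHO1 at 151 to 163 and 98.7 to 113. In RNA from whole seedlings, fewer cells of a type and less RNA per cell cannot be told apart.

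The skipped exons were short. Their median width was 67 bases, with quartiles of 45 and 94 bases and a range from 1 to 1685 bases, against a median of 117 bases for the 99354 exon bins with no splicing event. The width was divisible by 3 in 478 of the 913 (52.4%). The same share was 44.5% among exon bins with no event, 56.9% among the 2298 bins between alternative 3' splice sites, 42.7% among the 1456 between alternative 5' splice sites and 40.1% among the 2230 retained introns. Exons over 120 bases were divisible by 3 in 56.8% of cases, those of 61 to 120 bases in 53.3% and those of up to 60 bases in 49.9%. The frame is a property of the width only, since the files do not mark which bases are coding.

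Splice junction reads, which cross an exon border, give the share of transcripts that contain the exon. Inclusion was taken as the mean number of reads entering the exon at its borders, divided by that mean plus the reads that skip the exon. Of the 913 exons, 647 had at least 10 such reads in each group. The annotation marks all of them as skipped in some transcript, yet 269 were at 0% inclusion in both groups and 201 at 100% in both. A further 64 stayed under 10% and 34 over 90%, which left 79 (12.2%) of mixed inclusion, between 10% and 90% in dark or in light. By junction reads at the annotated borders, most of the 647 exons were therefore seen in a single form in these seedlings. The other 266 exons had too few junction reads to be placed. The median over the 647 exons was 5.25% in dark and 4.44% in light, and these medians fall between the exons that were nearly always skipped and those nearly always included.

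The exons at 0% had a median of 131 skipping reads over the 6 libraries and a median of 2 reads on the exon itself, and 83 of the 269 had no read on the exon at all. Width went with the form that was seen. Of 270 exons of up to 60 bases with enough junction reads, 152 were at 0% in both groups and 46 at 100%. Of 97 exons over 120 bases, 18 were at 0% and 47 at 100%. Reads of a fixed length have fewer positions inside a narrow exon, and the part of this in the counts was not tested.

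**Figure D1:**
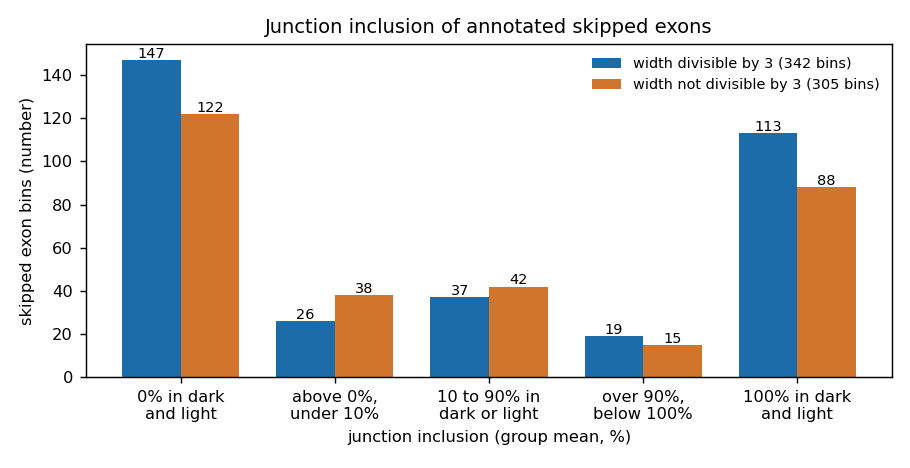
Bars give the number of skipped exon bins (vertical axis) in each class of junction inclusion (horizontal axis, group mean in percent), for widths divisible by 3 (342 bins) and not divisible by 3 (305 bins). Most exons of either frame sit at 0% or 100% in both dark and light, and 37 and 42 exons are of mixed inclusion.

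Among the 79 exons of mixed inclusion, those whose width was divisible by 3 were included more often than the others. The median inclusion in dark was 61.6% for the 37 exons whose width was divisible by 3 and 32.8% for the 42 others, and in light the medians were 62.5% and 31.0%. Every library showed this order. The medians of the 6 libraries ran from 57.1% to 65.2% for widths divisible by 3 and from 27.4% to 34.6% for the others. The difference between the frames is a description of these exons, and no test was made over them because exons are not replicates. Over all 647 exons with enough junction reads the frames lay closer, with dark medians of 7.52% for widths divisible by 3 and 4.13% for the others. In both groups, 147 of 342 and 122 of 305 were at 0%, and 113 and 88 at 100%.

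Inclusion was higher in light for 45 of the 79 exons of mixed inclusion and lower for 34, with a median difference of 2.26 percentage points and a range from -39.7 to 30.6 points. The median difference was 1.46 points for widths divisible by 3 and 3.66 points for the others. It was 2.73 points for exons of up to 60 bases, 2.26 points for those of 61 to 120 bases and -0.258 points for those over 120 bases. The medians by library overlapped between groups for all 79 exons together, at 42.9% to 46.5% in dark and 45.2% to 54.7% in light, and for the 29 exons of 61 to 120 bases. They did not overlap in the other width classes, and lay in opposite directions. For the 34 exons of up to 60 bases they were 26.5% to 31.3% in dark and 33.3% to 45.5% in light. For the 16 exons over 120 bases they were 41.0% to 51.1% in dark and 29.7% to 37.0% in light. Single exons did not all follow these medians. Inclusion was higher in light for 22 of the 34 exons of up to 60 bases and lower for 12. Of the 16 exons over 120 bases, 8 were higher and 8 lower. The medians by library are a description, and no test was made over the exons. Inclusion of the 3 light libraries lay wholly above or wholly below that of the 3 dark libraries in 17 of the 79 exons (21.5%), 9 above and 8 below. The same was true of 170 of 1059 alternatively spliced bins of mixed inclusion of any kind but retained introns (16.1%). By frame these were 5 of 37 exons with widths divisible by 3 and 12 of 42 others, and this contrast was not tested.

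**Figure D2:**
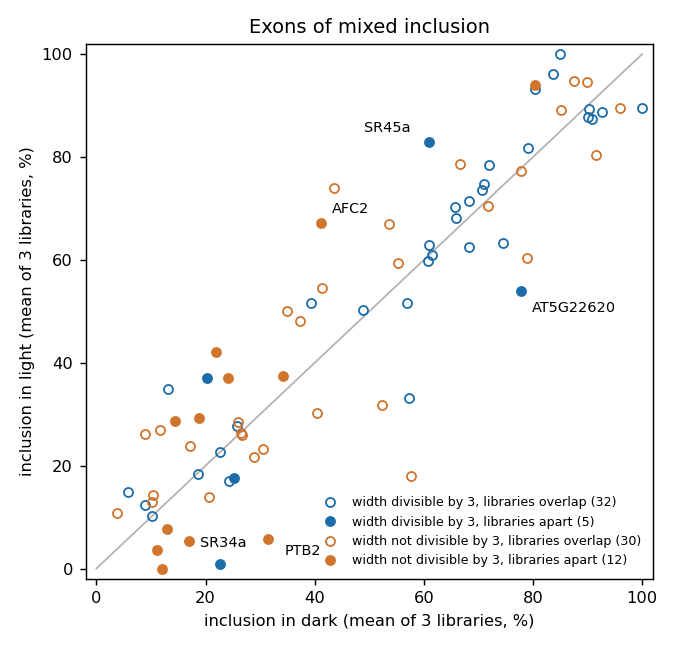
Each circle is an exon of mixed inclusion, placed by its mean inclusion over 3 dark libraries (horizontal axis, %) and 3 light libraries (vertical axis, %), with equal values on the grey line. Filled circles mark the 17 exons whose dark and light libraries do not overlap, among them SR34a (16.9% to 5.27%), PTB2 (31.5% to 5.71%) and AFC2 (41.2% to 67.2%).

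Usage, the reads on an exon relative to all reads of its gene in the same library, was tested over all alternatively spliced bins with the quasi-likelihood F test of edgeR and Benjamini-Hochberg adjustment. Of the 913 skipped exons 326 passed the filter on low counts, and 183 had no read in any library. In 2 of the 326, usage fell in light at an adjusted p under 0.05 (0.613%), and in 0 it rose. Among all 3348 alternatively spliced bins tested the share called was 1.19%, with 0.538% higher and 0.657% lower. At an unadjusted p under 0.05 there were 22 skipped exons (6.75%), 7 higher and 15 lower, against 9.05% of all bins tested, and DESeq2 called 1 of the 2. Dark and light libraries did not overlap in usage in 40 of the 326 (12.3%), against 14.8% of all bins tested. For usage, each of these shares lies below that of all bins tested.

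The typical change of usage was small in every class of width and frame. The median log2 change, light against dark, was -0.01 over the 326 exons, and the median size of the change regardless of sign was 0.14, as it was over all bins tested. The median change was -0.02 for the 180 exons with widths divisible by 3, of which 0 were called by edgeR and 13 had an unadjusted p under 0.05. For the 146 others the median was 0.00, 2 were called and 9 had an unadjusted p under 0.05. By width, an unadjusted p under 0.05 was reached by 5 of 84 exons of up to 60 bases, 6 of 163 of 61 to 120 bases and 11 of 79 over 120 bases (13.9%). Wider exons collect more reads, and the part of depth in this order was not tested.

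**Figure D3:**
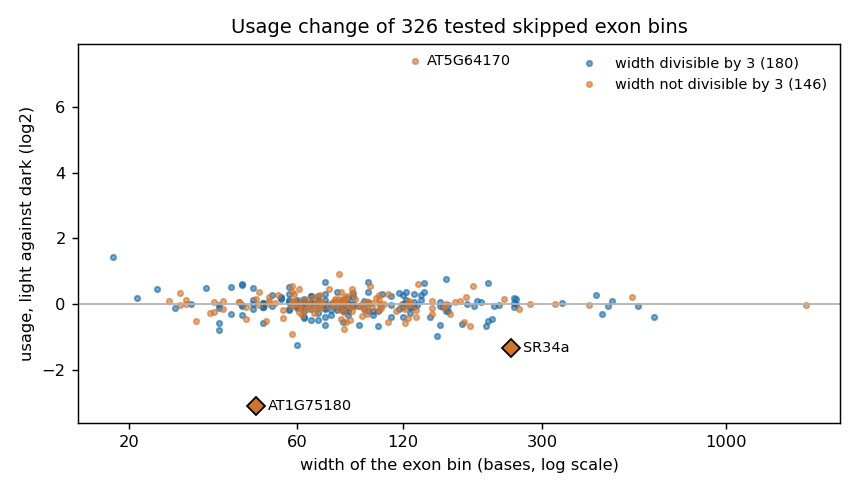
Each point is a tested skipped exon, placed by its width (horizontal axis, bases, log scale) and its change of usage in light against dark (vertical axis, log2), coloured by whether the width is divisible by 3. Most points lie near 0 at all widths, diamonds mark the 2 called exons in SR34a and AT1G75180, and AT5G64170 at the top has 14 gene reads in each dark library.

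The clearest change was in SR34a (At-SR34a, AT3G49430), a member of the SR family of RNA-binding splicing factors. The exon lies on chromosome 3 at 18332248 to 18332492 (TAIR10), is 245 bases wide, and its width is not divisible by 3. It had 72, 71 and 58 reads in dark A to C and 35, 25 and 34 in light A to C, while the gene had 843, 739 and 814 reads in dark and 939, 1092 and 796 in light. Every light library was below every dark library on the exon although the gene as a whole was higher in light (log2 change 0.52 ± 0.06, SE, adjusted p = 2.16e-06 by edgeR). Usage fell from 8.42% ± 1.24 to 3.43% ± 1.02 of the gene's reads (SD, n = 3 each), a log2 change of -1.33 ± 0.20 (SE, edgeR adjusted p = 0.000665). The call held under each of the 14 alternatives tried, with a log2 change between -1.52 and -1.07.

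The junctions of this SR34a exon were uneven. Reads that enter it from its lower coordinate numbered 27, 23 and 20 in dark and 11, 8 and 12 in light. At its other border there was 1 read in dark B and 0 in the other 5 libraries. Reads that skip the exon numbered 56, 50 and 74 in dark and 82, 101 and 99 in light. Inclusion was 16.9% ± 4.32 in dark and 5.27% ± 1.30 in light (SD, n = 3 each), and as it averages both borders, a border without reads lowers the value. An unannotated junction that leaves the exon 21 bases before its end had 2, 9 and 7 reads in dark and 2, 2 and 6 in light. Taken alone, the main entering junction, 18331712 to 18332248, had 24, 23 and 18 reads in dark and 11, 8 and 12 in light, and missed the threshold over all junctions (log2 change -1.30 ± 0.30, SE, edgeR adjusted p = 0.0594, between 0.00948 and 1 over 10 alternatives).

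The other called exon was in AT1G75180, for which the tables used give no gene name. It lies on chromosome 1 at 28216741 to 28216786, is 46 bases wide, and its width is not divisible by 3. It had 22, 16 and 18 reads in dark and 0, 0 and 3 in light, with 663, 686 and 714 reads over the gene in dark and 338, 420 and 248 in light. The exon was thus at 0 in light A and B, and the gene itself was lower in light (log2 change -0.76 ± 0.07, SE, edgeR adjusted p = 4.08e-07). Usage fell from 2.72% ± 0.523 to 0.403% ± 0.698 (SD, n = 3 each), a log2 change of -3.09 ± 0.67 (SE, edgeR adjusted p = 0.0185).

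Few junction reads tied that exon to its annotated borders, with 6 in dark B and 0 in the other libraries. An unannotated junction that enters it 35 bases after its start had 14, 3 and 14 reads in dark and 0 in every light library. Skipping reads numbered 45, 48 and 50 in dark and 32, 35 and 29 in light. The call was lost without dark A, B or C or light A or B (edgeR adjusted p = 0.0686, 0.0634, 0.105, 0.0738 and 0.194). It was also lost without the pair of libraries richest in ribosomal RNA (0.198) and with all exon bins in the fit (0.272), and without light C the log2 change was -6.95 (adjusted p = 0.00245). DESeq2 gave it no adjusted p. The gene overlaps AT1G75170, but the exon lies outside the overlap.

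**Figure D4:**
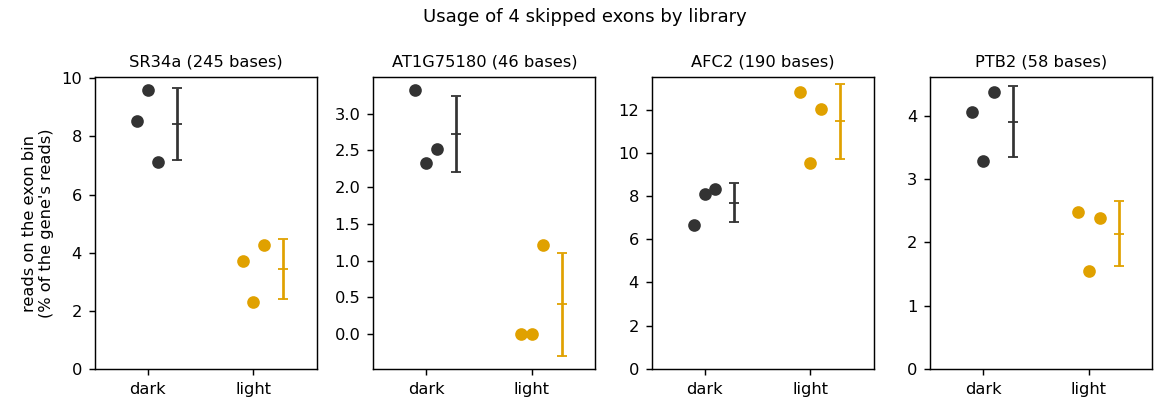
Points give the reads on the exon as a percentage of the gene's reads (vertical axis) in each of 3 dark and 3 light libraries, and bars give the mean and SD. In all 4 exons shown the dark and light libraries do not overlap, with lower values in light for SR34a, AT1G75180 and PTB2 and higher values for AFC2.

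Other regulators of splicing carried exons whose values moved but did not pass the test of usage. AFC2 (AT4G24740) encodes a LAMMER-type kinase, a class that phosphorylates SR proteins. Its exon on chromosome 4 at 12756745 to 12756934 is 190 bases wide, a width not divisible by 3. The exon had 36, 39 and 45 reads in dark and 81, 70 and 66 in light, with 540, 481 and 541 gene reads in dark and 632, 736 and 549 in light. No light library overlapped the dark ones, in usage or in inclusion. Usage was 7.70% ± 0.899 in dark and 11.4% ± 1.73 in light (SD, n = 3 each), a log2 change of 0.56 ± 0.17 (SE) with an edgeR adjusted p of 0.147. Inclusion was 41.2% ± 7.17 in dark and 67.2% ± 3.85 in light (SD, n = 3 each). The gene was also higher in light, by 0.58 ± 0.06 on the log2 scale (SE, edgeR adjusted p = 1.29e-06).

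Over junctions, 695 that enter or skip a skipped exon were tested with the same model, and 2 were called (0.288%), 1 higher and 1 lower, against 0.169% of all 65831 junctions tested (0.0729% higher and 0.0957% lower). At an unadjusted p under 0.05 the shares were 5.61% and 5.39%. The junction that rose leads into the AFC2 exon from its lower coordinate, 12756566 to 12756745. It had 0, 7 and 5 reads in dark and 19, 23 and 17 in light, while reads that skip the exon numbered 10, 10 and 12 in dark and 10, 13 and 8 in light. Its log2 change was 1.97 ± 0.44 (SE, edgeR adjusted p = 0.0451). The call was lost without dark A or C or any single light library (adjusted p between 0.141 and 0.353), and with DESeq2 (0.833). At the other border, the junction 12756934 to 12757552 had 10, 11 and 13 reads in dark and 28, 21 and 18 in light. Its log2 change was smaller, 0.68 ± 0.28, and was not called (SE, edgeR adjusted p = 0.866).

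The junction that fell skips a pair of exons of RPL18AA (AT1G29970), named for a protein of the large ribosomal subunit. It spans 10500234 to 10500819 on chromosome 1 and had 78, 105 and 72 reads in dark and 19, 31 and 26 in light, a log2 change of -1.33 ± 0.19 relative to the gene count (SE, edgeR adjusted p = 9.22e-05). The skipped exons themselves had 2 reads in dark A, 1 in light A and 0 in the other libraries, so no shift between inclusion and skipping was seen. The neighbouring junction 10500011 to 10500120 fell as well, from 100, 88 and 98 reads to 38, 38 and 26 (-1.07 ± 0.15, adjusted p = 4.37e-05). The junctions 10500894 to 10501004 and 10501054 to 10501137 also fell (-1.49 ± 0.18 and -1.36 ± 0.17, SE). RPL18AA shares its part of lower coordinate with AT1G29965, which rose by 0.95 ± 0.08 on the log2 scale (SE, edgeR adjusted p = 5.97e-08). Junctions annotated to AT1G29965, set against the RPL18AA gene count, rose by 0.84 ± 0.14, 0.96 ± 0.13 and 1.05 ± 0.15 (SE). Reads of the shared part that cross no junction cannot be told apart, and their share in the RPL18AA gene count was not tested.

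PTB2 (ATPTB2, AT5G53180) encodes a polypyrimidine tract-binding protein. Its exon on chromosome 5 at 21570834 to 21570891 is 58 bases wide, a width not divisible by 3. It had 20, 15 and 20 reads in dark and 11, 8 and 8 in light, with 492, 456 and 457 gene reads in dark and 442, 517 and 335 in light. Light libraries were again wholly below dark ones. Usage was 3.91% ± 0.560 in dark and 2.14% ± 0.517 in light (SD, n = 3 each), a log2 change of -0.90 ± 0.30 (SE) with an edgeR adjusted p of 0.252. Inclusion was 31.5% ± 5.18 in dark and 5.71% ± 5.02 in light. Reads entering from the lower coordinate numbered 8, 8 and 13 in dark and 0 in every light library. At the other border there were 7, 4 and 9 reads in dark and 5, 0 and 3 in light, so the groups overlapped there. Skipping reads numbered 21, 13 and 19 in dark and 24, 29 and 18 in light.

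PTB1 (AT3G01150), the related gene, kept its 63-base exon in all junction reads of all 6 libraries, with a usage of 10.6% ± 2.1 in dark and 11.8% ± 0.280 in light (SD, n = 3 each). TFIIIA (AT1G72050), the transcription factor of 5S ribosomal RNA genes, carries a 175-base exon known for its likeness to 5S ribosomal RNA. The exon had 68, 43 and 49 reads in dark and 58, 66 and 57 in light, and its inclusion was 80.5% ± 9.54 in dark and 94.0% ± 2.21 in light (SD, n = 3 each). The libraries did not overlap in inclusion but did in usage, whose log2 change was 0.09 ± 0.17 (SE, edgeR adjusted p = 0.964).

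In the SR family, 4 of 20 listed genes carried 5 skipped exons, of which 4 were tested and 1, that of SR34a, was called. As genes, 9 of the 20 rose and 5 fell in light, beside 28.9% and 27.4% of all 20151 genes tested. SR45a (AT1G07350), an SR-like factor, has a 96-base exon with inclusion of 60.97% ± 13.9 in dark and 82.9% ± 10.2 in light (SD, n = 3 each). The light libraries lay above the dark ones by a small margin (74.5% against 73.3% for the nearest), but usage stood at 8.22% ± 0.769 and 8.50% ± 0.659 and the log2 change was 0.06 ± 0.16 (SE, edgeR adjusted p = 0.987). Reads at its border of higher coordinate numbered 7, 6 and 5 in dark and 27, 19 and 15 in light, while those at the other border were 15, 11 and 9 in dark and 14, 21 and 18 in light.

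SCL33 (SR33 in the file, AT1G55310) has a 36-base exon with inclusion of 24.3% ± 9.53 in dark and 17.0% ± 3.597 in light, with reads at a single border. RS40 (AT4G25500) has a 257-base exon with inclusion of 26.7% ± 9.17 in dark and 26.0% ± 4.29 in light (SD, n = 3 each). The libraries of these SR exons overlapped between groups. The second RS40 exon, of 67 bases, was too low for the test of usage, with 1, 12 and 11 reads in dark and 0, 0 and 2 in light beside 67, 52 and 65 and then 36, 33 and 28 skipping reads. RS40, whose gene overlaps another by coordinates, fell as a gene by 0.61 ± 0.06 on the log2 scale (SE, edgeR adjusted p = 6.86e-07). Among 11 other listed genes, which are splicing regulators apart from TFIIIA, 3 exons were tested, those of PTB1, PTB2 and TFIIIA, and 0 were called.

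The 12 clock genes and the 12 light signalling genes listed held 1 skipped exon each, neither deep enough to test. In LHY (AT1G01060), a core clock transcription factor, the 82-base exon had 10 reads in dark and 4 in light, beside 118, 95 and 107 skipping reads in dark and 104, 92 and 82 in light. Inclusion was 0.175% ± 0.302 in dark and 0.202% ± 0.350 in light (SD, n = 3 each). The exon of PIF6 (PIL2 in the file), a basic helix-loop-helix factor, had 14 usable junction reads in dark and 9 in light.

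Several uncalled exons in genes outside these lists had dark and light libraries apart in usage. AT3G30390 has a 111-base exon with 94, 88 and 120 reads in dark and 60, 70 and 41 in light. Its inclusion was 25.3% ± 4.24 in dark and 17.6% ± 2.29 in light (SD, n = 3 each), and the log2 change of usage was -0.38 ± 0.14 (SE, edgeR adjusted p = 0.349). The border of higher coordinate had 15 reads in dark and 9 in light, against 188 and 103 at the other, which lowers the inclusion values. An unannotated junction that leaves from inside this exon had 0, 9 and 11 reads in dark and 0 in every light library. AT5G22620 has a 66-base exon with 60, 47 and 39 reads in dark and 38, 30 and 33 in light. Here inclusion was 77.8% ± 7.65 in dark and 53.9% ± 8.75 in light, and skipping reads numbered 11, 4 and 4 in dark and 15, 12 and 9 in light. The change of usage was -0.47 ± 0.19 on the log2 scale (SE, edgeR adjusted p = 0.400). AT5G25520 has a 207-base exon with 32, 37 and 26 reads in dark and 24, 22 and 11 in light, and a log2 change of usage of -0.67 ± 0.24 (SE, edgeR adjusted p = 0.315). Its inclusion was 57.3% ± 9.14 in dark and 33.2% ± 12.8 in light, where the libraries overlapped (dark B 47.1%, light A 47.8%). Its border of higher coordinate had 0 reads in dark and 2 in light, which lowers these values.

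In some uncalled exons the dark and light libraries were apart in usage while skipping reads were few or absent. MCCA (AT1G03090), a subunit of methylcrotonyl-CoA carboxylase in leucine breakdown, has a 60-base exon in a gene that overlaps another by coordinates, with 36, 57 and 51 reads in dark and 5, 3 and 2 in light. The gene fell from 965, 938 and 878 reads to 175, 148 and 132, a log2 change of -2.33 ± 0.10 (SE, edgeR adjusted p = 2.70e-11). Usage was 5.205% ± 1.28 in dark and 2.13% ± 0.677 in light (edgeR adjusted p = 0.245), and a single skipping read was seen, in light A, where 3 and 1 reads entered the exon at its borders. RNS2, a vacuolar ribonuclease, has a 92-base exon with usage of 14.5% ± 0.932 in dark and 11.4% ± 0.527 in light, and CPUORF7, named for a conserved upstream reading frame, has a 42-base exon at 3.36% ± 0.729 and 5.15% ± 0.341. Neither had a skipping read in any library, and neither passed the test (edgeR adjusted p = 0.400 for each). The RNS2 exon had uneven borders, with 10 reads in dark and 5 in light at its lower coordinate, against 228 and 142 at the other.

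The 179-base exon of AT5G47430 stood at 6.99% ± 0.711 of the gene's reads in dark and 4.80% ± 0.174 in light (edgeR adjusted p = 0.320), with 1 skipping read in dark C. AT1G76280 has a 96-base exon with 11, 14 and 12 reads in dark and 22, 29 and 15 in light, and inclusion of 83.8% ± 16.7 and 96.1% ± 6.79. Its usage overlapped between groups by a small margin, at 3.75% to 5.76% in dark and 5.64% to 7.67% in light.

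Of the 8 named exons of mixed inclusion with the most junction reads, SR34a, AT3G30390 and AT4G34265 had dark and light libraries apart in inclusion, and the other 5 did not. NAI2 (AT3G15950), a component of endoplasmic reticulum bodies, has 2 neighbouring skipped exons of 66 and 48 bases. The first had 229, 273 and 297 reads in dark and 228, 300 and 189 in light, with inclusion of 68.2% ± 3.29 and 71.5% ± 0.531. The second had 243, 298 and 264 reads in dark and 221, 269 and 181 in light, with inclusion of 90.7% ± 2.57 and 87.4% ± 2.61 (SD, n = 3 each). In both, the libraries of the groups overlapped. The reads that skip either exon all lay on unannotated junctions. Unannotated junctions that end inside the 66-base exon had 186 and 75 reads over all libraries.

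JR1 (AT3G16470), a jacalin-related lectin, has a 462-base exon that was included at 79.1% ± 2.30 in dark and 81.8% ± 7.26 in light. HEMB1 (AT1G69740), an enzyme of tetrapyrrole synthesis, has a 57-base exon at 10.1% ± 1.501 and 10.2% ± 1.32, values lowered by a border with 0 reads in all 6 libraries, and the gene fell by 0.26 ± 0.06 on the log2 scale (SE, edgeR adjusted p = 0.00109). AT4G04223 has a 42-base exon at 25.8% ± 6.21 and 27.8% ± 1.27 (SD, n = 3 each). In AT4G34265 a 65-base exon was at 34.1% ± 0.694 in dark and 37.4% ± 1.51 in light, a small difference without overlap whose test of usage gave an edgeR adjusted p of 0.855. The widest exon tested, 1685 bases in AT3G51640, held 56.8% ± 1.79 of the gene's reads in dark and 55.4% ± 3.33 in light.

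The narrowest exon tested, 18 bases in NFA2 (NAP1;2, a histone chaperone), had 41, 0 and 0 reads in dark and 35, 58 and 0 in light, with 1726 to 2804 reads over the gene. Light B and dark A had reads at the border of lower coordinate only, light A at the other border only, and skipping reads were present in every library, between 17 and 33. Its reads thus lay either at 0 or at 35 and above among libraries of the same group. The usage test gave an edgeR adjusted p of 0.590, but without dark A, the single dark library with reads, it gave 0.00232.

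In AT5G64170 a 130-base exon on chromosome 5 at 25675911 to 25676040 had 0 reads in every dark library and 50, 42 and 31 in light. The gene had 14 reads in each dark library and 870, 915 and 603 in light, the gene having risen by 6.09 ± 0.12 on the log2 scale (SE). Usage in light was 5.16% ± 0.579 (SD, n = 3). In dark, 0 of 42 gene reads allow a usage of up to 7.14% (3 reads, counting error only), so no difference in usage was detectable at this depth (edgeR adjusted p = 0.484). This exon was singled out after its values were seen.

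Inclusion was also tested directly, with entering against skipping reads of each bin in an edgeR model that was chosen after the data had been seen. Retained introns were left out of this test. Of 104 skipped exons with at least 10 reads of each kind, 0 were called, against 2 of 1094 bins of all other kinds and skipped exons together (0.183%, with 0.0914% higher and 0.0914% lower). At an unadjusted p under 0.05 there were 13 (12.5%), 6 higher and 7 lower, against 8.04% of the 1094 bins. SR34a had an adjusted p of 0.161, PTB2 of 0.360, AFC2 of 0.399 and AT5G22620 of 0.506. In AT1G16020 a 39-base exon, also singled out after its values were seen, had 9, 6 and 10 reads in dark and 1, 0 and 0 in light. Its inclusion was 22.6% ± 3.43 in dark and 0.855% ± 1.48 in light (SD, n = 3 each, adjusted p = 0.283).

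The genes that hold skipped exons responded to light about as often as all genes. Of 673 tested host genes, 402 were called by edgeR (59.7%), 204 higher and 198 lower in light, against 56.3% of all 20151 genes tested. Changes of at least 2-fold were seen in 68 of the 673 (10.1%), 34 in each direction, against 11.5% of all genes. Without normalization beyond library totals the median of all genes moved to -0.15 on the log2 scale, and the split became 134 higher and 271 lower.

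Border reads were uneven in some exons. Of the 79 exons of mixed inclusion, 8 had reads at a single border, and in 14 the lower border had under 0.2 of the reads of the higher. In 25 of the 913 exons a junction with at least 10 reads ended inside the exon, at a splice site that the bin does not mark. PRP39 (AT1G04080), a factor of the U1 small nuclear ribonucleoprotein, is such a case. Its 64-base exon had 17 to 28 reads in each library and 0 at either border, while an unannotated junction that ends 20 bases inside it had 5, 9 and 8 reads in dark and 6, 4 and 2 in light. By the border reads alone this exon counts as 0% included.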

How the data were processed

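The authors deposited raw counts per gene, exon bin, alternatively spliced bin and splice junction, with a column per library. The submitters' processing notes name TopHat2 2.0.9, R 3.1 and the TAIR10 build. Neither the counter nor any use of strand is given in the sources used here. Symbols come from the files or from RefSeq's gene table. Usage of bins and junctions was tested with edgeR 4.0.16 (R 4.3.3, limma 3.58.1, filterByExpr, quasi-likelihood F test), with an offset of the log of gene count plus 0.5, and genes after TMM normalization. P-values were adjusted (Benjamini-Hochberg) over all features tested and called under 0.05, and the models were tested on simulated data. The labels name no separate cultures, so p-values reflect only the spread of these libraries, possibly technical. No libraries agreed within sampling noise (lowest chi-square over its degrees of freedom 2.69). An exact permutation test of 3 against 3 libraries cannot go below p = 0.1 and was not used. Entering junctions end at the first or start at the last base of the exon; skipping junctions span it within its gene. Named exons are those called, the 10 next by unadjusted p, the 8 of mixed inclusion with most junction reads, the 4 with the largest inclusion difference among those with at least 30 junction reads in each group, those tested in listed genes, and the narrowest and widest tested. Others were named after their values were seen. The members and lists were chosen with earlier results of these data known. Alternatives were DESeq2 1.42.0, other offsets, filters and normalizations, leaving out libraries, and the library letter as a block. Genes overlap by coordinates in 161 of the 913 exons, but 5 exons themselves lie in another gene.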

Additional observations from a re-analysis of the deposited data

How the results depend on the processing

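The usage call of SR34a held under every alternative run. The number of exons higher in light, 0, became 3 without a filter on low counts (exons of AT2G19480, AT3G25980 and AT3G13790), and was 0 to 1 when 1 library was left out. The number lower, 2, became 1 with DESeq2, with all exon bins in the fit, without the pair of libraries richest in ribosomal RNA and in genes without coordinate overlap, and was 1 to 2 when 1 library was left out. Junctions higher, 1, became 0 with DESeq2 and without the pair of libraries, 5 without a filter, and 0 to 1 when 1 library was left out. Junctions lower, 1, became 5 without a filter and 1 to 3 when 1 library was left out, with 3 without light C and 2 without dark B. Host genes higher, 204, became 134 without normalization. Library letters did not pair the samples, as deviations of same-letter libraries correlated at -0.07, 0.12 and -0.04. With the letter as a replicate block, 1 exon was lower, the call of AT1G75180 being lost (edgeR adjusted p = 0.0612), junctions higher numbered 0, that of AFC2 being lost (0.0965), and host genes called were 204 higher and 200 lower.

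Uncalled changes of usage turned sign in 7 exons (log2). Without the pair of libraries richest in ribosomal RNA, TFIIIA went to -0.034, AT3G51640 to 0.019 and RS40 to 0.068. With 1 library left out, TFIIIA lay between -0.053 and 0.275, SR45a between -0.012 and 0.121, AT3G51640 between -0.081 and 0.011, the NAI2 exons between -0.052 and 0.082 and between -0.129 and 0.015, and AT4G04223 between -0.255 and 0.150. The cause was not tested.

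The set of mixed inclusion was drawn anew in each alternative. The median inclusion of all exons with enough junction reads, 5.25% in dark and 4.44% in light, was 1.89% and 2.19% with at least 30 junction reads, 9.07% and 9.85% with the larger border and 18.5% in both groups with the sum of borders. In light it was 5.89% with at least 5 reads and 3.85% without the pair of libraries, and with 1 library left out it was 2.99% to 6.13% in dark and 3.13% to 4.50% in light. For mixed inclusion, dark went to 49.4% with at least 5 reads and 39.4% with the larger border, and light to 40.7% with the larger border and 45.1% with the sum. With 1 library left out these were 41.1% to 48.8% and 45.2% to 51.3%. For widths not divisible by 3, dark went to 28.9% with at least 30 reads, 36.4% with the larger border, 40.0% with the sum and 29.0% without the pair of libraries. With 1 library left out it was 28.5% to 34.1%, and for widths divisible by 3 it was 60.9% to 64.3%. Median log2 usage changes with 1 library left out lay between -0.023 and -0.0038 for widths divisible by 3, -0.032 and 0.018 for the others, and -0.039 and 0.0046 for 61 to 120 bases.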
